A study of Rattus norvegicus with 6 samples.

Results

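The epidermal keratins Krt5, Krt14, Krt15, Krt1, Krt2, Krt10 and Krt77, together with the transcription factor gene Tp63, were followed across back skin of Sprague-Dawley rats, an outbred laboratory strain. The 8 genes were taken by symbol from a table of 34225 loci, each symbol matched 1 row, and all 8 were among the 16398 loci tested. Krt5, Krt14, Krt15 and Tp63 mark the basal layer, and Krt1, Krt2, Krt10 and Krt77 mark the suprabasal layers. Messenger RNA was sequenced in 6 libraries, 2 per group. Untreated rats were set against rats given gefitinib at 80 mg/kg by mouth each day, and against rats given afatinib at 30 mg/kg by mouth each day. Dosing with either drug went on until a rash was seen, so doses differed and durations may have differed. All rats shared the strain and the tissue. The titles of the untreated libraries carry the label WT, and no allele or transgene is named for any group. The sources used here do not give age, sex, or the number of rats behind a library, and nothing says that replicates came from separate animals. P-values therefore measure only the spread between these libraries, which may be technical.

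Keratins are the intermediate filament proteins of epithelia, and each filament pairs a type I with a type II keratin. Basal keratinocytes, which divide and sit on the basement membrane, use the pair Krt5 (type II) and Krt14 (type I), with Krt15 as a further type I keratin. A cell that leaves the basal layer turns to the pair Krt1 (type II) and Krt10 (type I), and Krt2 joins them higher up. The protein p63, encoded by Tp63, maintains the stratified epithelial fate and activates the basal keratin genes. Gefitinib and afatinib block the epidermal growth factor receptor, EGFR, a receptor tyrosine kinase that favours keratinocyte growth, and rash is a frequent effect of such drugs. The question here is how the basal and suprabasal programmes stood in rash skin.

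The type II genes Krt5, Krt1, Krt2 and Krt77 lie together on chromosome 7 and the type I genes Krt14, Krt15 and Krt10 on chromosome 10, all on the minus strand. Coordinates are those of the files; the sources used here do not give their genome build. Krt5 (ENSRNOG00000050420) spans 143316920 to 143453546, Krt1 (ENSRNOG00000028996) 143448318 to 143453544, Krt2 (ENSRNOG00000009563) 143412858 to 143420027, and Krt77 (ENSRNOG00000036865) 143461423 to 143473783. On chromosome 10, Krt14 (ENSRNOG00000003899) spans 88055823 to 88122233, Krt15 (ENSRNOG00000014099) 88046803 to 88050622, and Krt10 (ENSRNOG00000030170) 87296451 to 87300736. Tp63 (ENSRNOG00000001924) spans 78234800 to 78456501 on chromosome 11. A count covers a whole gene, so the p63 isoforms made from different start sites cannot be told apart.

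A RefSeq promoter sequence (build GRCr8) was matched for 5 of the 8 genes: Krt5, Tp63, Krt2, Krt10 and Krt77. No entry was matched for Krt1, Krt14 and Krt15. The 250 bases upstream of the start are printed for Krt5, Tp63 and Krt77, the 3 genes that passed a test below, and for Krt10, which did not. Capitals mark matches on either strand to a pair of short motifs. The first, TATANA, is the core promoter box found near many start sites. The second, CACCC, is bound by factors of the Klf family.
Krt5 (chr7:134730570-134730819, minus strand): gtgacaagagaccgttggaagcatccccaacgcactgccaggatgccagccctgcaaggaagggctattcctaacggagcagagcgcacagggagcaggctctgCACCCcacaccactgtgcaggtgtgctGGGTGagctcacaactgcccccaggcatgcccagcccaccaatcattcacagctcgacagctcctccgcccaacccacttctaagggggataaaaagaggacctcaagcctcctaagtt
Tp63 (chr11:88554178-88554427, minus strand): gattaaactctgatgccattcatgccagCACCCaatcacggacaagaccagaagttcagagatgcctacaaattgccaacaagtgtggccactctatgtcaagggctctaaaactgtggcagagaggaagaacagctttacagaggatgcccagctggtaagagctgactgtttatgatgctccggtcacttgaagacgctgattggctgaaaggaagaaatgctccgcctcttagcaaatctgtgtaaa
Krt10 (chr10:84839161-84839410, minus strand): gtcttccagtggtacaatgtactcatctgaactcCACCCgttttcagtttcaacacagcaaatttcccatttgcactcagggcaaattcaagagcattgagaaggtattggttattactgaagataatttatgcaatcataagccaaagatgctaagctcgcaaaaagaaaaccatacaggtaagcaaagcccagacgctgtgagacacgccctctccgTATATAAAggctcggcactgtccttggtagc
Krt77 (chr7:134880777-134881026, minus strand): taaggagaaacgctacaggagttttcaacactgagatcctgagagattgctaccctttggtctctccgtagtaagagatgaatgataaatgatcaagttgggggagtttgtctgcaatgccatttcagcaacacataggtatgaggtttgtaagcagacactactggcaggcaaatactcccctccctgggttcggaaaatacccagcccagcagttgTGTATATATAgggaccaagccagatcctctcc

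The 3 matched suprabasal genes each held the first motif, starting 31 and 29 bases upstream of the start in Krt10, 28 bases upstream in Krt2, and 30 and 28 bases upstream in Krt77, with overlapping matches on the opposite strand. The letters TATANA were not in the Krt5 or Tp63 window, though the Krt5 window held the run ataaaaa near its end, which those letters do not match. CACCC stood in Krt5 at 146 bases upstream and, on the opposite strand, at 119 bases, in Tp63 at 222 bases and in Krt10 at 216 bases. Among 33469 RefSeq promoters of the same length, 24.2% held the first motif and 49.2% the second. An AP-1 motif, TGANTCA, and GCCNNNGGC, an AP-2 motif, were searched on both strands too. Neither was in any of the 5 windows, and 6.34% and 12.6% of all promoters held them. A match is a run of letters and no evidence of binding, and a missing match does not show that variants of the motif are absent.

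Library totals ran from 17206456 to 22086673 counts, and 18487 to 19913 loci had at least 1 count. Levels of 1 gene across libraries are given as TMM-scaled CPM (a count divided by the scaled library total), and levels of different genes are compared in the deposited FPKM, which divide a count by gene length. Markers of skeletal muscle, which lies under the skin of the back, took 25.2% and 23.1% of counts in untreated skin, 6.60% and 10.9% with gefitinib, and 19.7% and 6.95% with afatinib. The muscle share of counts was thus lower in every treated library, by little in afatinib replicate 1, and differed between the afatinib libraries. In bulk tissue, fewer cells of a type and less RNA per cell cannot be told apart.

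The basal genes Krt5 and Tp63 rose with gefitinib, while the suprabasal pair Krt1 and Krt10 lay within the range of untreated skin. Krt5 stood at 410 and 251 CPM in the untreated libraries, at 1134 and 1222 CPM with gefitinib, and at 1148 and 1765 CPM with afatinib. All 4 treated libraries lay above both untreated libraries, and afatinib replicate 2 was the highest. The means were 331 ± 112 CPM (SD, n = 2) untreated, 1178 ± 62.3 CPM with gefitinib and 1456 ± 437 CPM with afatinib.

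For Krt5, gefitinib against untreated gave a log2 fold change of 1.83 (3.56-fold, 95% interval 1.67 to 7.6; adjusted p = 0.0386 in edgeR's quasi-likelihood test). Afatinib against untreated gave 2.14 (4.4-fold, 2.05 to 9.48), with an adjusted p of 0.0535 that missed the threshold of 0.05. The mean of both inhibitors against untreated gave 1.99 (3.96-fold, 1.96 to 8.01; edgeR adjusted p = 0.0267).

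Tp63 stood at 64.2 and 61.3 CPM in untreated skin, at 226 and 251 CPM with gefitinib, and at 117 and 205 CPM with afatinib. Again no treated library overlapped the untreated pair. Gefitinib raised Tp63 by a log2 fold change of 1.93 (3.81-fold, 95% interval 2.18 to 6.66; edgeR adjusted p = 0.0162), and the mean of both inhibitors gave 1.64 (3.13-fold, 1.88 to 5.19; edgeR adjusted p = 0.0193). The afatinib value was 1.36 (2.57-fold, 1.48 to 4.45), with an adjusted p of 0.0714 in edgeR.

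Krt14, the filament partner of Krt5, stood at 357 and 149 CPM untreated, at 442 and 364 CPM with gefitinib, and at 760 and 1303 CPM with afatinib. The treated libraries lay above both untreated libraries, though gefitinib replicate 2 exceeded untreated replicate 1 by little. The log2 fold change was 0.67 with gefitinib (1.6-fold, 95% interval 0.691 to 3.68; edgeR adjusted p = 0.368) and 2.03 with afatinib (4.08-fold, 1.72 to 9.7; edgeR adjusted p = 0.0798). For the mean of both it was 1.35 (edgeR adjusted p = 0.0903). None of these passed the test.

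Krt15, a keratin of basal cells and of the hair follicle bulge, stood at 283 and 144 CPM untreated, at 276 and 274 CPM with gefitinib, and at 121 and 262 CPM with afatinib. Each inhibitor group overlapped the untreated pair. Its log2 fold changes of 0.37 with gefitinib (95% interval of the fold 0.598 to 2.77) and -0.16 with afatinib (0.417 to 1.93) did not pass (edgeR adjusted p = 0.594 and 0.869).

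**Figure D1:**
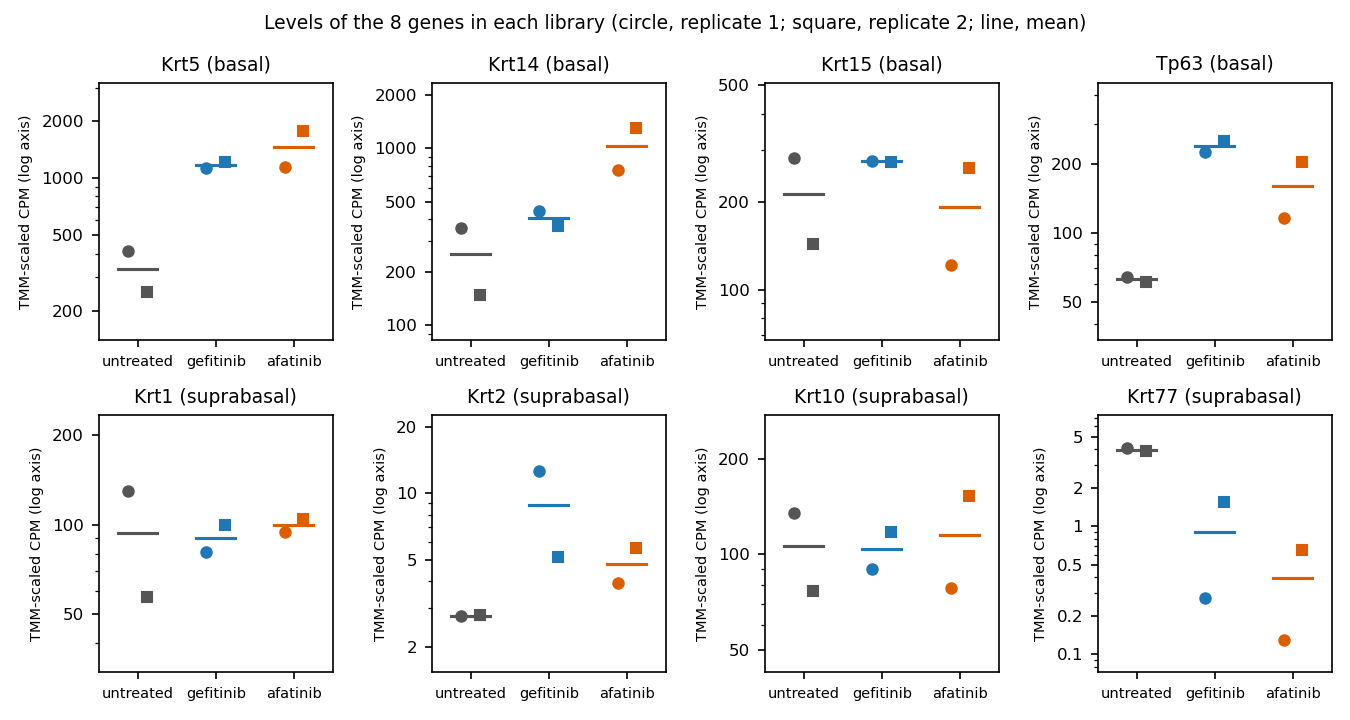
Level of each of the 8 genes in TMM-scaled CPM on a log axis, by group, with circles for replicate 1, squares for replicate 2 and a line at the group mean. Krt5 and Tp63 lie above untreated skin in all 4 treated libraries, Krt1, Krt10 and Krt15 overlap untreated skin under both drugs, and Krt77 is lower in all 4 treated libraries.

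Among the suprabasal genes, Krt1 and Krt10, the main pair of the spinous layer, gave no detectable change. Krt1 stood at 130 and 57.3 CPM untreated, at 81.1 and 100 CPM with gefitinib, and at 94.8 and 104 CPM with afatinib. Krt10 stood at 135 and 76.5 CPM untreated, at 89.6 and 118 CPM with gefitinib, and at 78.3 and 152 CPM with afatinib. For both genes the treated libraries overlapped the untreated pair.

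Krt1 had a log2 fold change of -0.047 with gefitinib (95% interval of the fold 0.512 to 1.83; edgeR adjusted p = 0.94) and 0.090 with afatinib (0.563 to 2.01; edgeR adjusted p = 0.912). Krt10 had -0.029 with gefitinib (0.497 to 1.93; edgeR adjusted p = 0.965) and 0.12 with afatinib (0.552 to 2.15; edgeR adjusted p = 0.884). The intervals reach about 2-fold in either direction, so a change of that size was not detectable. The sign of these small values depended on the scaling: with library size as the only scaling, gefitinib gave 0.65 for Krt1 and 0.66 for Krt10, against a median of 0.73 over all genes, and Krt15 with afatinib turned from -0.16 to 0.59 against a median of 0.71.

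Krt2, a keratin of the upper spinous and granular layers, was low at 2.77 and 2.79 CPM untreated, 12.6 and 5.16 CPM with gefitinib, and 3.9 and 5.67 CPM with afatinib. Every treated library was above the untreated pair, and gefitinib replicate 1 was well above the rest. Its log2 fold change of 1.67 with gefitinib (3.19-fold, 95% interval 1.38 to 7.38) did not pass (edgeR adjusted p = 0.0624), nor did 0.79 with afatinib (1.72-fold; edgeR adjusted p = 0.408). The gefitinib value passed in 6 of 14 settings, among them DESeq2 (adjusted p = 0.0169) and library size as the only scaling (adjusted p = 0.0387), with a range of 0.014 to 0.379.

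Krt77, a type II keratin known from suprabasal epidermis and from sweat gland ducts, was lower in treated skin. It had 59 and 66 counts in the untreated libraries, 7 and 35 with gefitinib and 2 and 17 with afatinib. These correspond to 4.08 and 3.84 CPM, 0.274 and 1.53 CPM, and 0.13 and 0.655 CPM. All 4 treated libraries were below both untreated libraries, and replicates of either drug differed several-fold from each other.

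Krt77 fell in the mean of both inhibitors, with a log2 fold change of -2.68 (6.41-fold lower; 95% interval of the fold 0.0471 to 0.517; edgeR adjusted p = 0.0494). The drugs taken singly gave -2.13 for gefitinib (4.39-fold lower; adjusted p = 0.13) and -3.23 for afatinib (9.36-fold lower; adjusted p = 0.108), neither past the edgeR threshold. With library size as the only scaling Krt77 missed the threshold in the mean (adjusted p = 0.0966), as it did with library size without skeletal muscle genes (log2 fold change -2.25; adjusted p = 0.08; range over all alternatives 0.00186 to 0.21). Krt77 reached 0.5 CPM in 4 of the 6 libraries and so passed the filter on low counts through its higher libraries, whereas the other 7 genes reached it in all 6.

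Against untreated skin, 2 of the 8 genes passed with gefitinib, Krt5 and Tp63, both higher. Of all 16398 genes 17.7% passed, 12.3% as higher and 5.45% as lower. The basal genes Krt14 and Krt15 did not pass. With afatinib, 0 of 8 passed in edgeR, where 3.98% of all genes did, 3.6% as higher and 0.372% as lower. Of the 8, 4 had an unadjusted p below 0.05, as did 21.9% of all genes, while DESeq2 called 4 of the 8 and 1992 genes in all, and limma-voom 0 of the 8 and 34 in all. For the mean of both, 3 of 8 passed, Krt5 and Tp63 higher and Krt77 lower. Of all genes 16% passed, 11% as higher and 4.93% as lower. Counts this small are not read as a result about the 8 genes or about either layer. Krt5, Krt14, Tp63 and Krt2 lay above both untreated libraries in each inhibitor group, a pattern seen in 38.8% of all genes with gefitinib and 31.5% with afatinib. Krt77 lay below both, as did 33.9% and 21.8% of all genes. These shares are for each drug alone. The share of all genes with this pattern under both drugs is not given here, so the lack of overlap is not read as a result. The 2 inhibitor comparisons share the untreated libraries.

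These calls rest on few libraries. Leaving out either untreated library or either gefitinib library left 0 of the 8 genes past the threshold with gefitinib. Over all genes those fits called 10 and 0 without untreated replicates 1 and 2, and 808 and 371 without gefitinib replicates 1 and 2, against 2906 with all libraries, so the calls of other genes were lost too. Leaving out either afatinib library instead raised the number of calls with gefitinib, both among the 8 genes and over all genes. For the mean of both inhibitors, calls were fewer when an untreated or a gefitinib library was left out, and more without afatinib replicate 1. This held among the 8 genes and over all genes. With afatinib itself, calls among the 8 genes appeared only without afatinib replicate 1 (Krt5, Krt14 and Tp63), where calls over all genes rose as well. The directions of Krt5, Tp63 and Krt77 against untreated were kept in each of these fits, and their log2 fold changes for the mean ran from 1.68 to 2.38, from 1.35 to 1.82 and from -3.62 to -2.36.

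**Figure D2:**
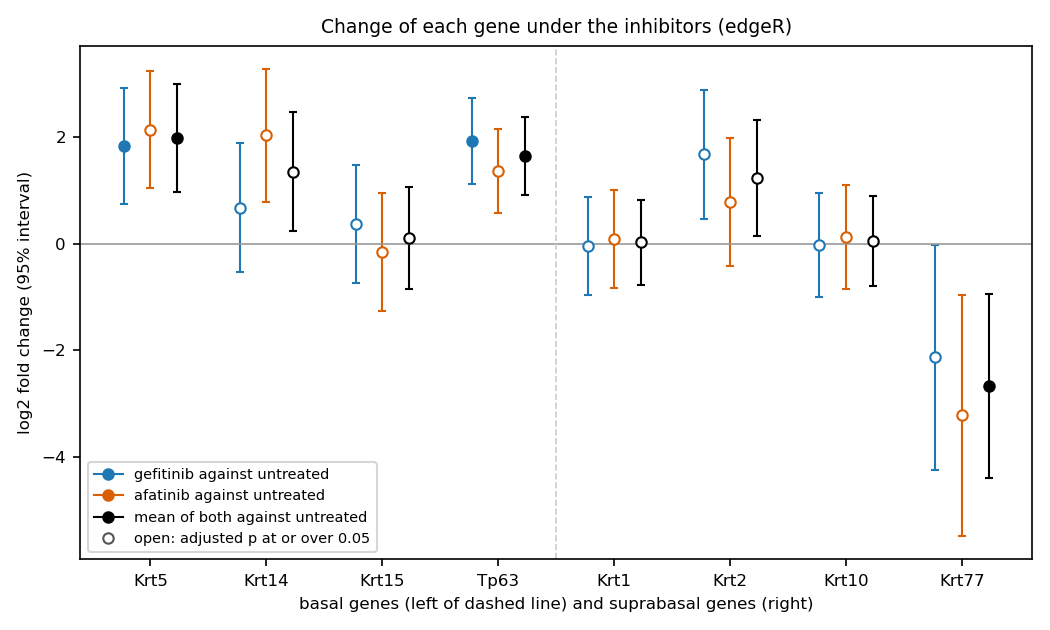
Log2 fold change of each gene with its 95% interval from edgeR, for gefitinib, afatinib and the mean of both against untreated skin; filled points passed at an adjusted p under 0.05. Basal genes are left of the dashed line; Krt5 and Tp63 are filled for gefitinib and for the mean, and Krt77 is filled for the mean alone.

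Afatinib was also set against gefitinib directly, at doses that differ. In edgeR 0 of the 8 genes passed, as did 0 of 16398 genes (0% called). An unadjusted p below 0.05 was reached by 1 of the 8 and by 946 genes in all (5.77%); over all genes DESeq2 gave 31 calls and limma-voom 0, and neither called any of the 8. Krt14 had the lowest p of the 8, with a log2 difference of 1.36 (2.56-fold higher with afatinib, 95% interval 1.1 to 5.98; edgeR adjusted p = 0.787). The Krt5 ratio was 1.24 (0.592 to 2.58) and the Tp63 ratio 0.674 (interval in log2 -1.35 to 0.21). The suprabasal ratios were 1.1 for Krt1 (0.582 to 2.08), 1.11 for Krt10 (0.564 to 2.19), 0.541 for Krt2 (0.24 to 1.22) and 0.469 for Krt77 (0.1 to 2.2). Intervals this wide leave differences of 2-fold undetected, and missing the threshold does not show that the drugs act alike.

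Compared per length, the order of the genes differed at its top. In both untreated libraries Krt15 had the highest FPKM of the 8 genes, at 172 and 87.9, beside Krt14 at 169 and 70.6 and Krt5 at 131 and 80.4. With gefitinib Krt5 was highest at 349 and 385 FPKM, followed by Krt14 at 202 and 170 and Krt15 at 162 and 164. With afatinib Krt5 stood at 354 and 528 FPKM and Krt14 at 348 and 578 FPKM, each leading in 1 library, and Krt15 was lower at 71.4 and 149. Within untreated skin these 3 basal keratins did not differ beyond their spread. Krt10 and Krt1 came next, at 62.8 and 35.7 FPKM and 54.5 and 24.2 FPKM untreated, and they too overlapped. Tp63 ran from 11.2 to 45.4 FPKM over the 6 libraries. Krt2 and Krt77 were lowest, with Krt77 above Krt2 in both untreated libraries and below it in all 4 treated libraries.

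The summed FPKM of the basal keratins Krt5, Krt14 and Krt15 was 471 and 239 in untreated skin, 714 and 719 with gefitinib, and 774 and 1256 with afatinib. The summed suprabasal FPKM was 120 and 62.3 untreated, 78 and 98.1 with gefitinib, and 75.3 and 110 with afatinib. The basal sum was higher in all 4 treated libraries, while the suprabasal sums overlapped. The basal sum was 3.93 and 3.84 times the suprabasal sum in untreated skin, 9.15 and 7.33 times with gefitinib, and 10.3 and 11.4 times with afatinib. On the log2 scale the group means of this ratio were 1.96 ± 0.0254, 3.03 ± 0.226 and 3.44 ± 0.109 (SD, n = 2 each). This ratio needs no scaling between libraries; it is a description of chosen genes and was given no test.

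Within the 7 keratins the basal share was 79.7% and 79.3% of FPKM untreated, 90.1% and 88.0% with gefitinib, and 91.1% and 92% with afatinib. Krt5 accounted for 22.1% and 26.7% untreated, 44.1% and 47.1% with gefitinib, and 41.7% and 38.7% with afatinib. Krt14 held 28.5% and 23.4% untreated, 25.5% and 20.8% with gefitinib, and 41% and 42.4% with afatinib. Thus the share of Krt5 was higher under both drugs, and that of Krt14 under afatinib. The Krt15 share was 29.1% and 29.2% untreated, 20.5% and 20.1% with gefitinib, and 8.4% and 10.9% with afatinib. These shares are descriptions and were given no test.

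Ratios between single keratins shifted for some pairs only. Krt5 was 0.775 and 1.14 times Krt14 in untreated FPKM, 1.73 and 2.26 times with gefitinib, and 1.02 and 0.913 times with afatinib, the last within the untreated range. Krt15 was 1.02 and 1.25 times Krt14 untreated, 0.802 and 0.967 times with gefitinib, and 0.205 and 0.258 times with afatinib. Krt1 and Krt10 kept close to each other, with ratios of 0.867 and 0.678, 0.818 and 0.767, and 1.09 and 0.619 in the same order. The 4 type II keratins together were 0.465 and 0.551 times the 3 type I keratins untreated, 0.957 and 1.1 times with gefitinib, and 0.867 and 0.719 times with afatinib, so the treated libraries held more type II relative to type I.

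**Figure D3:**
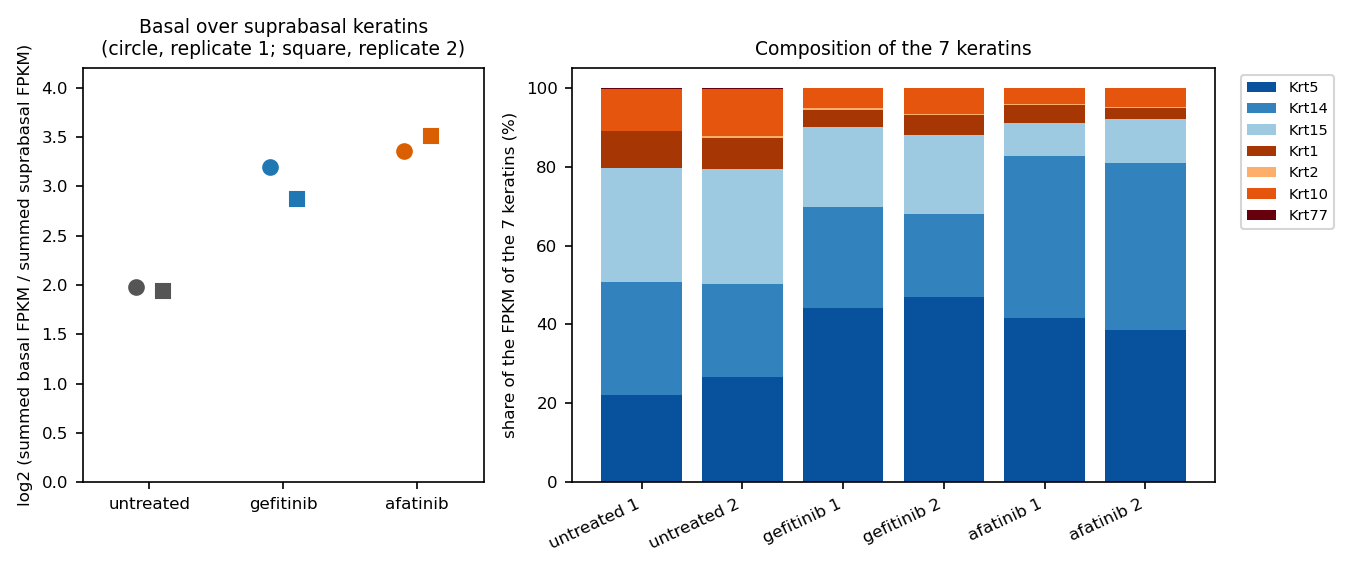
Left, log2 of summed basal over summed suprabasal keratin FPKM in each library; right, the share of each of the 7 keratins in their summed FPKM as stacked bars, basal in blue and suprabasal in red to orange. The 4 treated libraries lie between 2.87 and 3.52 on the left, above the untreated values of 1.98 and 1.94, and the Krt15 band narrows to 8.4% and 10.9% with afatinib.

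The extent of 2 gene models bears on these values. In the files the Krt5 model spans 136.6 kb, against 5.73 kb for Krt5 in RefSeq (GRCr8), and the Krt14 model spans 66.4 kb, against 4.27 kb. The Krt5 model starts 2 bases from the start of Krt1 and holds Krt1, Krt2, Krt73, Krt72 and Krt71 on the same strand. The Krt14 model holds Krt9 and Krt19 and overlaps Krt17. Spans of Krt15, Krt1, Krt2, Krt10 and Krt77 were within 0.02 kb of RefSeq.

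The sources used here do not give how reads shared by these overlapping or near-identical keratins were assigned, so the counts of Krt5, Krt14, Krt1 and Krt2 are uncertain to that extent. Krt71, a keratin of the inner root sheath of hair, had 351 and 1737 counts untreated, 36408 and 33244 with gefitinib and 6565 and 29690 with afatinib. Krt5 in the same libraries had 5933 and 4318, 28927 and 27926, and 17661 and 45781 counts. Both were higher in all treated libraries. In these unscaled counts, from replicate 1 to replicate 2, Krt71 was higher and Krt5 lower in untreated skin, and both were higher with afatinib. With gefitinib both counts were lower, whereas Krt5 in TMM-scaled CPM was higher, at 1134 and then 1222. The gefitinib direction thus depended on the scaling. Krt5 was highest in afatinib replicate 2, where Krt71 was below both gefitinib libraries. Krt17, a keratin of the follicle and of stressed epidermis, had 625 and 1596 counts untreated, 17875 and 12005 with gefitinib and 6564 and 16697 with afatinib, beside Krt14 at 5157 and 2553, 11280 and 8306, and 11696 and 33789. The part of misassigned reads in the changes of Krt5 and Krt14 was not tested. Without Krt5, the mean log2 ratio of basal to suprabasal keratins was 1.43 untreated, 1.996 with gefitinib and 2.60 with afatinib.

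**Figure D4:**
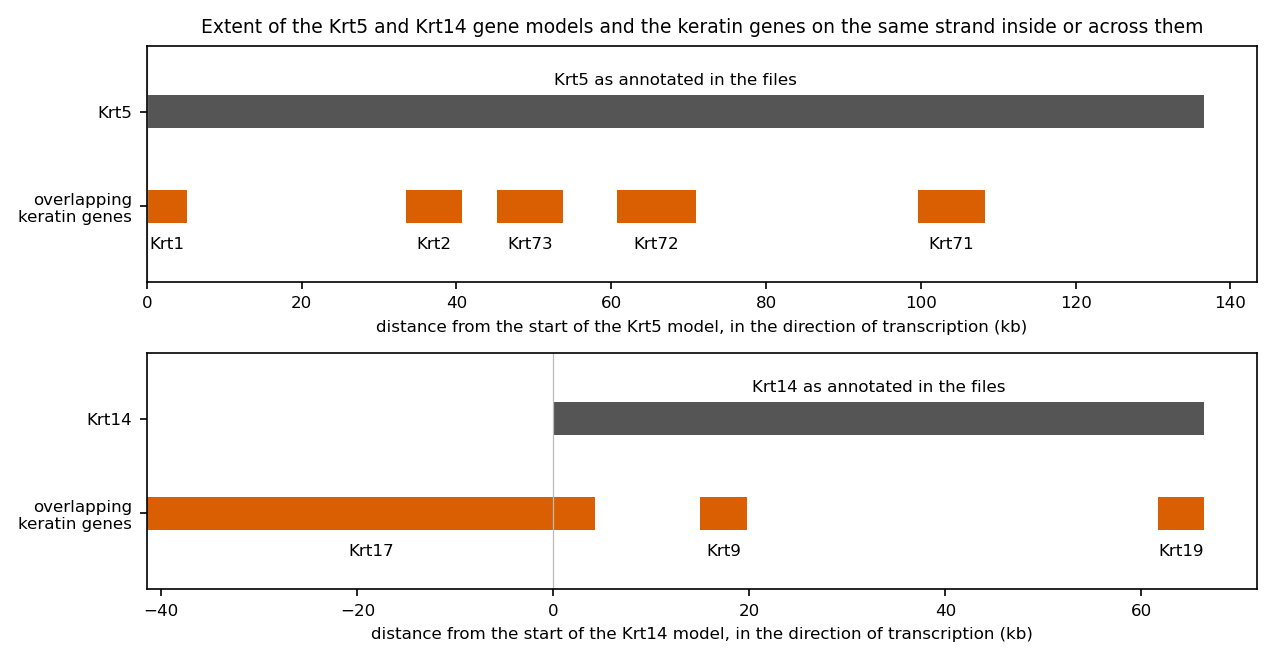
Extent of the Krt5 model (upper panel) and the Krt14 model (lower panel) as annotated in the files, in kb from each model's start in the direction of transcription, with overlapping keratin genes of the same strand below. Krt1, Krt2, Krt73, Krt72 and Krt71 lie inside the 136.6 kb Krt5 model, and Krt17, Krt9 and Krt19 overlap the 66.4 kb Krt14 model.

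Other epithelial genes were higher along with Krt5 and Tp63, many by more. Of 10 genes listed as pan-epithelial, 10 rose with gefitinib (12.3% of all genes), 6 with afatinib (3.6%) and 10 in their mean (11%). Their median log2 fold change was 2.64 in the mean against 0.061 over all genes. Whether these genes are expressed evenly over epidermal layers and follicle was not tested, so a level over their sum is no level per epithelial cell. Cdh1, the adhesion protein E-cadherin, rose by 2.31, Epcam, a surface glycoprotein of epithelia, by 2.24, Rab25, an epithelial trafficking GTPase, by 3.04, and Esrp2, an epithelial splicing factor, by 2.89 (edgeR adjusted p from 0.0108 to 0.0135). Their summed level was 149 and 146 CPM untreated, 1138 and 1119 CPM with gefitinib, and 429 and 972 CPM with afatinib. Of the 10, Ehf was at 0 in untreated replicate 2.

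Set against that sum, a comparison chosen after the data were seen and given no test, Krt5 differed by -1.06 and Tp63 by -1.01 on the log2 scale with gefitinib. Their levels over the sum were 1.12 ± 0.482 and -1.23 ± 0.0294 untreated and 0.061 ± 0.0938 and -2.24 ± 0.124 with gefitinib (log2, SD, n = 2). With afatinib Krt5 stood at 1.14 ± 0.394 and Tp63 at -2.06 ± 0.261. Krt14 was at 0.64 ± 0.876 untreated, -1.49 ± 0.182 with gefitinib and 0.62 ± 0.284 with afatinib. Krt15 was at 0.45 ± 0.672, -2.04 ± 0.00837 and -1.86 ± 0.0476 in the same order, and Krt2 at -5.73 ± 0.0277, -7.13 ± 0.891 and -7.1 ± 0.452. Krt77 was at -5.22 ± 0.044, -10.8 ± 1.77 and -11.1 ± 0.817. Krt1 was at -0.77 ± 0.816 untreated, -3.65 ± 0.232 with gefitinib and -2.7 ± 0.736 with afatinib, and Krt10 at -0.53 ± 0.565, -3.46 ± 0.298 and -2.56 ± 0.154. By this measure the means of all 8 genes were lower with gefitinib than untreated, and with afatinib those of all but Krt5 and Krt14, whose means differed from untreated by less than the SD.

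Genes of the p63 network and regulators of differentiation were taken as 1 list. Of 25 tested, 17 were higher and 1 lower with gefitinib, and 10 higher and 0 lower with afatinib. In the mean of both 16 were higher and 1 lower, with a median log2 fold change of 1.92. Of all genes 12.3%, 3.6% and 11% were higher, and 5.45%, 0.372% and 4.93% lower. Grhl3, a factor of barrier formation, rose by 3.77, Ovol1, a repressor active in cells leaving the basal state, by 3, and the epidermal AP-2 factors Tfap2a and Tfap2c by 2.93 and 2.75 (edgeR adjusted p from 0.008 to 0.0135). Tp63 itself, at 1.64, was below the median of this list, which does not include it.

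Suprabasal differentiation was also followed in genes other than keratins. Of 19 symbols listed, 11 were found and 10 tested, so the list covers this programme in part. Of the 10 tested, 8 were higher with gefitinib, 7 with afatinib and 8 in the mean of both, and 0 were lower. Their median in the mean was 2.6, and 12.3%, 3.6% and 11% of all genes were higher in these comparisons. Among the 10, 1 gene was at 0 throughout a group. Tgm1, the transglutaminase that cross-links the cornified envelope, stood at 1.45 and 2.15 CPM untreated, at 37.8 and 30.5 CPM with gefitinib and at 27 and 35.8 CPM with afatinib. The peptidase gene Klk7 rose by 3.43, the calmodulin-like gene Calml3 by 3.33 and Sbsn, which encodes suprabasin, by 1.7 in the mean of both (edgeR adjusted p from 0.0108 to 0.0124). The difference between this list and the suprabasal keratins was not tested.

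Cell junction genes were taken in 2 lists. Of 14 desmosome genes, which join keratin filaments between cells, 13 rose with gefitinib, 6 with afatinib and 13 in the mean of both, with a median of 2.42. Among them Perp rose by 2.26, Dsg3 by 2.4, Pkp3 by 2.7 and Dsg2 by 2.92 (edgeR adjusted p from 0.0141 to 0.0153). Of 11 hemidesmosome and basal adhesion genes, which anchor Krt5 and Krt14 filaments to the basement membrane, 2 rose and 2 fell with gefitinib, 2 rose and 0 fell with afatinib, and 3 rose and 2 fell in the mean of both, with a median of 0.25. Of all genes, 12.3% rose and 5.45% fell with gefitinib, 3.6% and 0.372% with afatinib, and 11% and 4.93% in the mean. Counts this small are not read as a result about the list. The integrin subunit Itga3 rose by 1.33 and the laminin chain Lamb3 by 1.88, while Dst, a plakin that binds keratin, fell by 1.27 (edgeR adjusted p from 0.0231 to 0.0238). With library size as the only scaling, 4 of these 11 rose and 0 fell in the mean of both.

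Of 35 other keratin genes tested, 26 rose with gefitinib, 15 with afatinib and 25 in the mean of both, and 0 fell. Krt16 and Krt17, keratins of stressed and hyperproliferative epidermis, both rose in all 3 comparisons. Krt16 went from 0.069 and 0.116 CPM untreated to 11.5 and 5.51 CPM with gefitinib and 34.4 and 18.9 CPM with afatinib. Krt8, a keratin of simple epithelia, rose by 3.72, Krt23 by 4.58 and the hair cortex keratin Krt34 by 6.12 in the mean of both (edgeR adjusted p from 0.0108 to 0.0121). With gefitinib, afatinib and their mean, 2, 1 and 1 of 4 simple epithelium keratins rose. Of 5 further epidermal and mucosal keratins 2, 2 and 2 rose, among them Krt76 by 3.5. The shares of all genes that rose were 12.3%, 3.6% and 11% in the same order. Counts of 1 or 2 genes are not read as a result about these lists. All Krt genes together took 0.108% and 0.0889% of counts untreated, 1.13% and 0.798% with gefitinib, and 0.368% and 1.27% with afatinib. The 7 keratins described here made up 88% and 59.9% of those untreated, 23.3% and 29% with gefitinib, and 53.7% and 39.5% with afatinib.

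Markers of the hair shaft and inner root sheath were higher along with Krt5 and Tp63. All 20 rose with gefitinib and in the mean of both, and 10 rose with afatinib (3.6% of all genes). Their summed level was 102 and 370 CPM untreated, 6707 and 5087 CPM with gefitinib, and 1546 and 5371 CPM with afatinib, with Krt86 at 0 in untreated replicate 1 and Krt83 at 0 in untreated replicate 2. Of 12 follicle bulge and outer root sheath genes, the compartment in which Krt15, Krt5 and Krt14 are also expressed, 2 rose and 1 fell with gefitinib and in the mean, and 0 passed with afatinib in edgeR, where 5 had an unadjusted p under 0.05. Of all genes, 12.3% rose and 5.45% fell with gefitinib, 11% and 4.93% in the mean, and 21.9% had such an unadjusted p with afatinib. These few calls are too near those shares to be read as a result. Lhx2 rose by 2.52 and Gli1 by 2.23, and Nfatc1 fell by 1.24 (edgeR adjusted p from 0.0209 to 0.028); with library size as the only scaling 3 rose and 0 fell. The part of follicle content in the levels of the 8 genes was not tested.

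Skeletal muscle markers lay opposite to Krt5 and Tp63 and in the direction of Krt77. Their summed level was 351137 and 297241 CPM untreated, 51189 and 98236 CPM with gefitinib, and 220394 and 49888 CPM with afatinib, with none of 22 at 0. Of these 22, Actn2 alone passed, lower with gefitinib and in the mean of both, and the median for the mean was -1.71. Of all genes 5.45% and 4.93% were lower in these comparisons. Afatinib replicate 1, the treated library with the highest muscle marker sum, had the lowest Krt77, at 2 counts. The part of muscle content in the changes was not tested.

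Of the other cell types, in the mean of both inhibitors, 6 of 8 Schwann cell, 3 of 7 endothelial and 1 of 8 smooth muscle and pericyte genes were lower, and 3 of 5 neutrophil, 2 of 7 T cell, 2 of 11 sebocyte, 2 of 6 sweat or mammary gland, 1 of 10 fibroblast and 1 of 6 melanocyte genes were higher, beside 11% of all genes higher and 4.93% lower. Lists with 1 or 2 genes called hold too few calls to be read as a result. Of 8 adipocyte and 8 macrophage genes 0 passed in that edgeR comparison, with 3 and 0 at an unadjusted p below 0.05. With library size as the only scaling, 4 Schwann cell and 0 endothelial genes were lower. The sweat or mammary gland list shares keratins with the simple epithelium list. Its summed level was 2.77 and 2.68 CPM untreated, 27.6 and 20.0 CPM with gefitinib, and 10.3 and 15.5 CPM with afatinib. The simple epithelium list alone summed to 2.56 and 2.62, 25.5 and 16.8, and 9.75 and 13.4 CPM in the same order. In each library 2 or 3 of the 8 gland genes were at 0. The gland sum is thus no separate measure of gland content, whose part in the change of Krt77 was not tested.

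**Figure D5:**
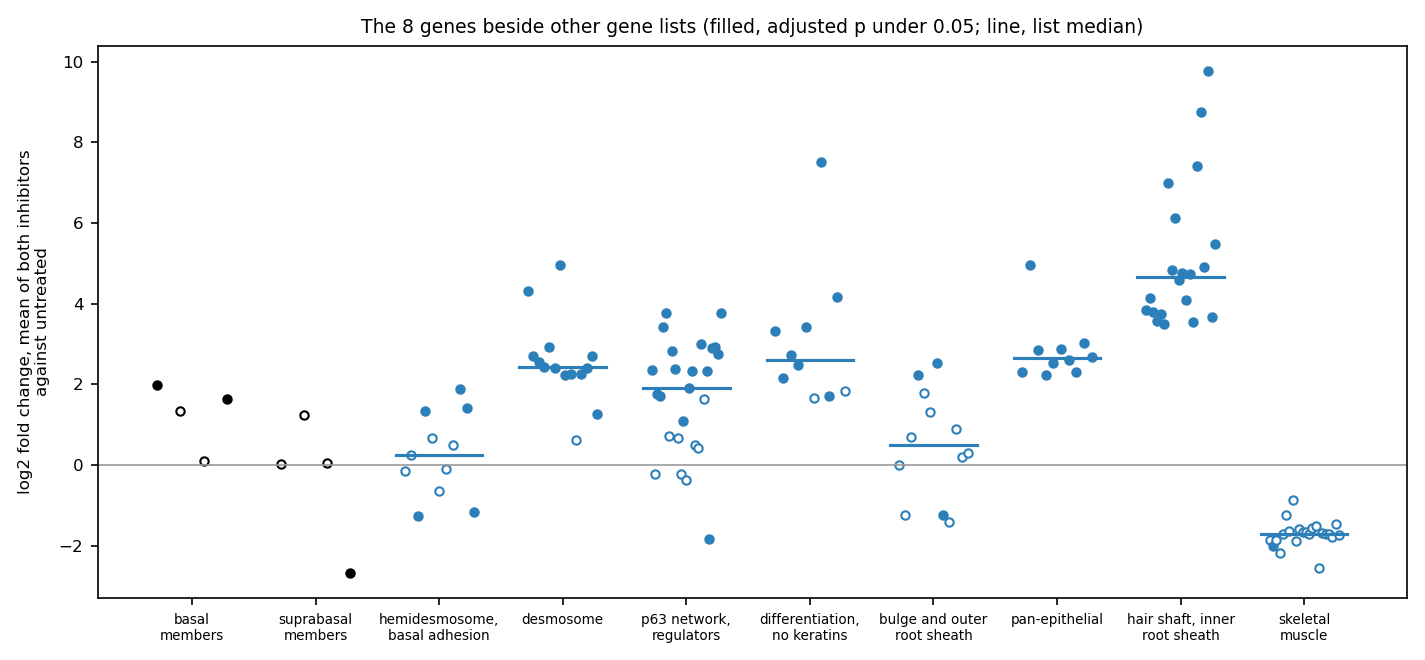
Log2 fold change of the 8 genes (black) and of genes of other lists (blue) for the mean of both inhibitors against untreated skin, from edgeR; filled points passed at an adjusted p under 0.05 and lines mark list medians. Pan-epithelial, desmosome and differentiation lists have medians of 2.64, 2.42 and 2.6, above Krt5 at 1.99 and Tp63 at 1.64, while Krt1 and Krt10 lie near 0.

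The genes most like each of the 8 across the 6 libraries were found by the root mean square difference of centred log2 CPM, among 8717 genes with a mean of at least 10 CPM (8718 for Krt2 and Krt77). For Krt5 they were Fam83f (0.116), Slc37a2 (0.143) and Fam83b (0.152). For Tp63 they were Exosc6 (0.0395), Camkk1 (0.061) and Nop58 (0.066), all closer than any gene was to Krt5. For Krt14 they were Serpinb2 (0.271) and Cpxm1 (0.332), and for Krt15 Ctns (0.187), Akap11 (0.196) and Cpt1a (0.221).

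For the suprabasal genes, Krt10 was closest to Ly6d (0.0927), Traf3ip2 (0.127) and Gm25994 (0.134), and Krt1 to Arl4d (0.136), Rexo4 (0.139) and Casp4 (0.167). Krt2 was closest to Shb (0.247), Galk1 (0.251) and Cdk4 (0.28). Krt77 was least like any other gene, with Arrdc2 (0.553) closest, followed by Mybph (0.571), a myosin-binding protein of muscle, and Fbxo32 (0.573), a ubiquitin ligase subunit known from muscle.

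Among the 8 genes, Krt10 ranked 71 in the order for Krt1, and Krt1 ranked 62 in the order for Krt10. Krt10 ranked 38 in the order for Krt15, which places a basal keratin nearer to the suprabasal pair than to Krt14 (rank 7369) or Krt5 (rank 7164). Krt5 ranked 24 for Krt14, Krt14 ranked 415 for Krt5, and Tp63 ranked 171 for Krt5. These ranks describe 6 libraries in 3 groups and share their scaling, so they carry no test.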

How the data were processed

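Back skin was frozen, RNA taken up in Trizol and sequenced with a TruSeq RNA kit, per the labels' protocols. Tools in the submitters' processing notes are DESeq2 1.16.1, featureCounts 1.5.0-p3 and HISAT2 2.0.5. The sources used here do not give genome build, annotation or strand of counting. The deposited count table holds whole, unscaled read counts per gene. The deposited FPKM were made by the authors from count, gene length and 1 divisor per library, which was 71.1% to 147% of that library's total, so a scaling between libraries is built in.

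Counts were filtered with filterByExpr, scaled with TMM and fitted with the quasi-likelihood model of edgeR 4.0.16 (R 4.3.3). The 6 libraries entered 1 fit with a coefficient for each group, which leaves 3 residual degrees of freedom. Unnamed loci (1342, holding 1.68% to 2.54% of counts) stayed in the fit. Two-sided p-values were adjusted over 16398 genes (Benjamini-Hochberg) and called at 0.05. The model was tested on simulated data.

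The 8 genes and all lists were chosen with earlier results of these data known. All 8 are named; from each list up to 4 genes with the smallest p in the mean of both inhibitors are named (fewer where space was short), and for each of the 8 genes the 3 most alike genes with a mean of at least 10 CPM (prior count 2); 1 gene that these rules pick is not reported here. Genes named for their overlap with the Krt5 and Krt14 models, and Krt83, Krt86 and Ehf, were chosen after their values were seen. Krt6a and Krt6b were not matched by symbol and are not used here. DESeq2 1.42.0, limma-voom 3.58.1, other scalings and filters and leaving out each library were alternatives. With 2 libraries per group, precision is limited by their number, not by depth, except for Krt77 and Krt2.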

Additional observations from a re-analysis of the deposited data

How the results depend on the processing

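The alternatives kept the directions of Krt5, Krt14, Tp63 and Krt2 (higher) and Krt77 (lower) against untreated skin, apart from the pan-epithelial reference below. Adjusted p over all alternatives ran from 4.86e-05 to 0.234 for Krt5 and from 4.31e-06 to 0.126 for Tp63 with gefitinib, and from 0.00186 to 0.21 for Krt77 in the mean of both.

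Replicate numbers did not pair the libraries: same-numbered libraries deviated together with r = 0.033, 0.037 and -0.17 for the pairs of groups. With the replicate block, 1 of the 8 genes (Tp63) passed with gefitinib instead of 2, with Krt5 at an adjusted p of 0.0732, 2 passed in the mean of both instead of 3, and 369 genes in all passed with afatinib instead of 652.

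Without the filter on low counts 4, 4 and 5 of the 8 genes passed with gefitinib, afatinib and their mean. With afatinib 3 passed with library size alone, 3 with library size without muscle genes and 4 with DESeq2. Krt14 passed in the mean of both under those 4 settings, and Krt2 with gefitinib without the filter, with library size alone, with DESeq2 and with only the groups compared. Over all genes, with gefitinib 4550 passed without the filter, 4682 with DESeq2 and 5286 with only the groups compared, against 2906. With afatinib 1281 passed with library size alone, 2083 without the filter, 1992 with DESeq2, 34 with limma-voom and 51 with only the groups compared. In the mean 4200 passed without the filter and 4251 with DESeq2, against 2618. Afatinib against gefitinib gave 1 with library size alone, 28 without the filter and 31 with DESeq2. With library size alone 3071 genes were higher and 191 lower with gefitinib, against 2013 and 893, and the median of all genes moved to 0.73. With library size without muscle genes the numbers were 2455 and 350, and the median 0.45. The cause of these differences was not tested.

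Some values changed sign. Krt1 with gefitinib was 0.65 with library size alone, 0.38 without muscle genes, 0.051 with limma-voom and 0.011 with the replicate block. Krt10 was 0.66, 0.39 and 0.0078 under the first 3 of these. Krt15 with afatinib was 0.59 and 0.34 under the first 2. In the mean, Krt1 was -0.0396 and Krt10 -0.0171 with RLE size factors and -0.0397 and -0.0172 with DESeq2. Against the summed pan-epithelial genes, Krt5 was -1.06 and Tp63 -1.01 with gefitinib, and Krt14 with gefitinib, Tp63 with afatinib and Krt2 with both drugs were also below untreated.

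The log2 ratio of basal to suprabasal keratins, for untreated, gefitinib and afatinib, was 3.97, 5.25 and 5.999 from means of log2 values, 1.43, 1.996 and 2.60 without Krt5, 1.39, 2.60 and 2.56 without Krt14, and 1.30, 2.66 and 3.28 without Krt15. It was 2.75, 3.82 and 4.29 without Krt1, 3.11, 4.13 and 4.56 without Krt10, and with CPM the afatinib value was 3.59. Under each of these the treated means were above the untreated mean.

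Leaving out each library gave 0 to 3 of the 8 genes with gefitinib, 0 to 3 with afatinib and 0 to 4 in the mean, and 0 to 5320, 0 to 3653 and 3 to 5809 genes in all, with 0 to 3 for afatinib against gefitinib. Log2 fold changes that changed sign ran, with gefitinib, from -0.039 to 0.93 for Krt15, -0.52 to 0.66 for Krt1 and -0.38 to 0.44 for Krt10. With afatinib they ran from -0.87 to 0.41 for Krt15, -0.38 to 0.79 for Krt1 and -0.49 to 0.59 for Krt10, and in the mean from -0.30 to 0.67, -0.45 to 0.72 and -0.31 to 0.51. For afatinib against gefitinib they ran from -0.027 to 0.58 for Krt5, -0.043 to 0.28 for Krt1, -0.40 to 0.55 for Krt10 and -2.72 to 0.56 for Krt77. Where 1 library of a group was left, it was assumed to vary like the other groups.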
